A study of Mus musculus with 8 samples.

Results

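Toll-like receptors are pattern recognition receptors that bind microbial products and molecules released from injured cells. In the brain they are carried mainly by microglia, the resident macrophages. Tlr1, Tlr2 and Tlr4 sit on the cell surface, Tlr4 with the help of Cd14, whereas Tlr3, Tlr7, Tlr9 and Tlr13 read nucleic acids in endosomes. All of these receptors except Tlr3 can signal through the adaptor Myd88 to kinases that release NF-kB, and from endosomes to interferon regulatory factors, which turn on cytokine and chemokine genes. Ly86 encodes MD-1, the partner of the receptor-like protein Cd180.

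The receptors Tlr1, Tlr2, Tlr3, Tlr4, Tlr7, Tlr9 and Tlr13 and the partners Cd14, Ly86 and Myd88 were examined in RNA-seq of mouse brain. These 10 genes were found by symbol, each once, among the 54532 genes of 1 count table and the 28229 genes of the other. The mice were male C57BL/6. An age is stated for behavioural tests but not for the mice of these libraries. All were put under restraint stress (RS), a daily confinement used to induce anxiety-like behaviour. The RS group had 2 libraries and no stroke, while the PTS + RS group had 2 libraries from mice that also received photothrombotic stroke (PTS), a cortical infarct made by light and the dye Rose Bengal. The other 4 libraries came from PTS + RS mice, 2 with RGFP109 at 60 mg/kg, an inhibitor of class I histone deacetylases, and 2 with its vehicle, which the sample titles call NaCl. Libraries were taken on Day 21. Labels gave cortex for PTS + RS and RS, and cortex for replicate 1 and amygdala for replicate 2 in the RGFP109 and vehicle groups. The sources do not state whether a library held 1 mouse or a pool, so the p-values measure the spread between these libraries, which may be technical.

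The libraries held between 15902013 and 21712033 counts on genes, and the members had from 9 to 1039 counts in a library. Some libraries stood apart. Vehicle replicate 1 had a summed level of 1138 CPM (counts scaled to library size) over 6 olfactory bulb markers, against 8.83 to 14.7 in the other 7 libraries. Both amygdala-labelled libraries were high in 6 striatal markers, at 729 and 860 CPM against 56.5 to 98.1 elsewhere, and the 10 amygdala markers summed to 147 and 170 CPM there, against 147 in the cortex-labelled RGFP109 library, 57.7 in the cortex-labelled vehicle library and 121 to 138 in the PTS + RS and RS libraries. The 6 cerebral cortex markers ran against the labels, at 538 and 483 CPM in the amygdala-labelled RGFP109 and vehicle libraries and at 281 and 223 in the cortex-labelled ones. A display of the study places amygdala before cortex with no replicate numbers, so the tissue of each library rests on the labels alone. The 6 choroid plexus markers summed to 44.9 CPM in PTS + RS replicate 2 against 1596 in replicate 1, and to 1800 and 3759 in the RS libraries. All 6 were lower in PTS + RS, with a median log2 fold change of -1.91, and none was called. They summed to 1497 CPM in the cortex-labelled RGFP109 library against 43.9 in the cortex-labelled vehicle library.

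Promoter sequences in the RefSeq table (GRCm38.p6) were at hand for 7 of the 10 members. Each promoter of 300 bases was searched on both strands for GAGGAAGT, an ETS site as bound by the myeloid factor PU.1, for GAAANNGAA, part of an interferon response element, for GGGANTTTC, part of an NF-kB site, and for TGANTCA, an AP-1 site. No match overlapped another. The stretches from 100 bases before to 30 bases after the RefSeq gene start are shown for the 4 members that held a PU.1 or interferon element, 2 that rose after stroke (Tlr1 and Ly86) and 2 that did not pass the test (Tlr9 and Myd88). Capitals mark the matches, and each sequence runs 5′ to 3′ on the strand of its gene.
Tlr1: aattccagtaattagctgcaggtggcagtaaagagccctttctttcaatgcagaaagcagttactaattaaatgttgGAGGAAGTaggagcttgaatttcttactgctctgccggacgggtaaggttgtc
Tlr9: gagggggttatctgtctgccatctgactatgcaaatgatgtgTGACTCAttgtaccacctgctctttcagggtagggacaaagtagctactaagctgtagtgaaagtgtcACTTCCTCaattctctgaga
Myd88: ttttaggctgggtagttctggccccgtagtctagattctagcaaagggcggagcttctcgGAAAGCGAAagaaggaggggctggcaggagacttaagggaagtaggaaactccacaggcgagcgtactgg
Ly86: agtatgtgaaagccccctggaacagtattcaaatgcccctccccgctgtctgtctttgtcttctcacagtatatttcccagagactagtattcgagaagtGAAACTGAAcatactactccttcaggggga

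These stretches lie at chr5:64933529-64933658, minus strand for Tlr1, chr9:106222498-106222627, plus strand for Tlr9, chr9:119339989-119340118, minus strand for Myd88 and chr13:37345245-37345374, plus strand for Ly86. Tlr1 held the PU.1 letters starting 23 bases before the gene start, and Tlr9 held them on the other strand from base 11 after it. The members had 8 promoters, since Tlr1 had another one, with its stretch at chr5:64932670-64932799, that held none of the letters. Tlr9 also held the AP-1 letters 58 bases before its start. The interferon letters began 40 bases before the start of Myd88 and at base 1 of Ly86. Over all 32851 promoters of the table, 3.20% held the PU.1 letters, 8.56% the interferon letters, 7.81% the AP-1 letters and 1.11% the NF-kB letters. The last were found in Tlr3 (211 bases before the start). None of these letters was in the windows of Tlr2 or Tlr13. The matches are a description of the letters and were present in members that passed the test as well as in members that did not.

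In the cortex, all 10 members were higher in both PTS + RS libraries than in both RS libraries, as were 25.7% of the 17581 genes tested. Of the 10, 6 rose past the threshold (edgeR, adjusted p under 0.05 over all tested genes, and a change of 1 or more on the log2 scale), against 2.12% of all tested genes called higher. Tlr2, Ly86, Tlr7, Tlr1, Tlr13 and Cd14 rose by 3.97- to 11.1-fold, while Tlr4, Tlr9, Tlr3 and Myd88 did not pass. The median log2 fold change of the members was 2.37, and that of all tested genes was -0.0015. In bulk tissue, more cells of a type and more RNA per cell cannot be told apart.

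**Figure D1:**
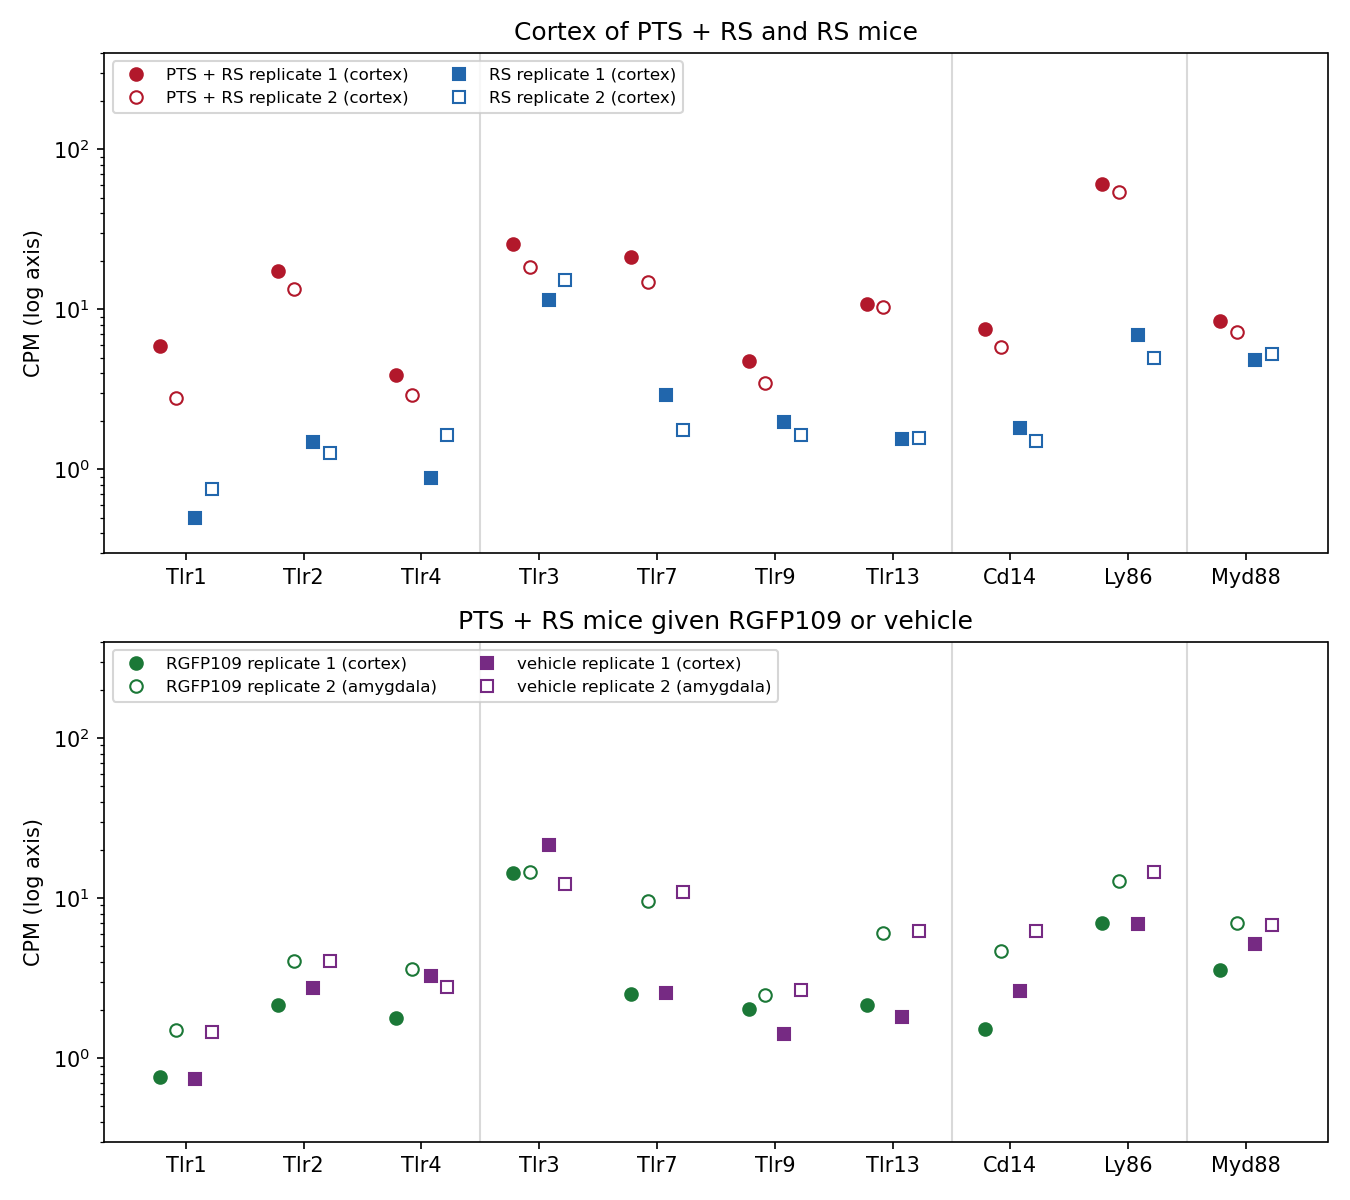
CPM of each member (log axis) in the 4 cortex libraries of PTS + RS and RS mice (top) and in the 4 libraries of PTS + RS mice given RGFP109 or vehicle (bottom), 1 point per library, with vertical lines between surface receptors, endosomal receptors, accessory proteins and the adaptor. Both PTS + RS points lie above both RS points for all 10 members, whereas RGFP109 and vehicle points overlap for all 10. Each treatment group holds 1 library of each labelled tissue, which forces the overlap for the 8 members higher in both amygdala-labelled libraries.

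Among the surface receptors, Tlr2 (ENSMUSG00000027995, chr3:83836272-83841767, minus strand), which pairs with Tlr1 or Tlr6 to bind lipoproteins, was at 17.5 and 13.5 CPM in the PTS + RS libraries and at 1.49 and 1.26 in the RS libraries. The lower PTS + RS library was several times the higher RS library, and Tlr2 had the largest fold of the 10 members (log2 fold change 3.48 ± 0.24 (SE), adjusted p = 7.57e-04). Tlr1 (ENSMUSG00000044827, chr5:64924679-64933563, minus strand) was at 5.90 and 2.81 CPM with stroke and at 0.497 and 0.757 without. The ratio between its PTS + RS libraries was larger than for any other member, and it rose with the widest error among the called members (log2 fold change 2.80 ± 0.48 (SE), adjusted p = 0.0279). The Tlr1 call was lost with limma-voom (adjusted p = 0.0695), on the log2(FPKM + 1) scale (adjusted p = 0.109) and on the log2(FPKM + 0.1) scale. Tlr1 and Tlr6 are related genes whose sequences were not compared here, so how reads were split between them is uncertain. Tlr4 (ENSMUSG00000039005, chr4:66827584-66930284, plus strand), the receptor for bacterial lipopolysaccharide, was at 3.91 and 2.93 CPM against 0.883 and 1.64. The groups did not overlap, but the difference did not pass the test (log2 fold change 1.45 ± 0.38 (SE), adjusted p = 0.101), with 16 to 67 counts in a library.

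The endosomal receptors split into a pair that rose and a pair that did not pass. Tlr7 (ENSMUSG00000044583, chrX:167304929-167330558, minus strand), a sensor of single-stranded RNA, was at 21.1 and 14.9 CPM in the PTS + RS libraries and at 2.92 and 1.77 in the RS libraries. It rose by 7.60-fold (log2 fold change 2.93 ± 0.29 (SE), adjusted p = 0.00311). Tlr13 (ENSMUSG00000033777, chrX:106143204-106160493, plus strand), which senses bacterial ribosomal RNA in mice, had the tightest replicates of the members, at 10.7 and 10.4 CPM with stroke and 1.55 and 1.58 without (log2 fold change 2.75 ± 0.21 (SE), adjusted p = 0.00126). Both genes lie on the X chromosome, far apart from each other.

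Tlr9 (ENSMUSG00000045322, chr9:106222598-106226883, plus strand), a sensor of unmethylated CpG DNA, was at 4.73 and 3.47 CPM in PTS + RS and at 1.99 and 1.64 in RS (log2 fold change 1.17 ± 0.30 (SE), adjusted p = 0.093). Tlr3 (ENSMUSG00000031639, chr8:45395665-45411080, minus strand), which binds double-stranded RNA and signals through Ticam1 in place of Myd88, was at 25.7 and 18.4 CPM against 11.5 and 15.3 (log2 fold change 0.72 ± 0.21 (SE), adjusted p = 0.132). Neither passed the threshold, although in both genes the higher RS library was below the lower PTS + RS library. Tlr3 overlaps the antisense gene Gm45542 over 698 bases, and the strand setting of the counting is not given in the sources used here.

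Of the accessory proteins, Ly86 (ENSMUSG00000021423, chr13:37345208-37419036, plus strand) had the smallest error of the members. It was at 60.6 and 54.2 CPM in the PTS + RS libraries and at 6.95 and 4.98 in the RS libraries, a 9.56-fold rise (log2 fold change 3.26 ± 0.17 (SE), adjusted p = 3.76e-04). Cd14 (ENSMUSG00000051439, on chromosome 18), which hands lipopolysaccharide to Tlr4, was at 7.53 and 5.80 CPM against 1.82 and 1.51 and also rose (log2 fold change 1.99 ± 0.27 (SE), adjusted p = 0.0103). The shared adaptor Myd88 (ENSMUSG00000032508, chr9:119335934-119341411, minus strand) had the smallest difference of the 10, at 8.46 and 7.18 CPM against 4.80 and 5.24 (log2 fold change 0.64 ± 0.20 (SE), adjusted p = 0.153). Myd88 overlaps Acaa1a on the other strand over 1736 bases and lies within Slc22a14 on the same strand. These are overlaps of whole gene spans. Overlap of exons was not examined and the strand setting is not given, so how far reads were shared is uncertain.

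**Figure D2:**
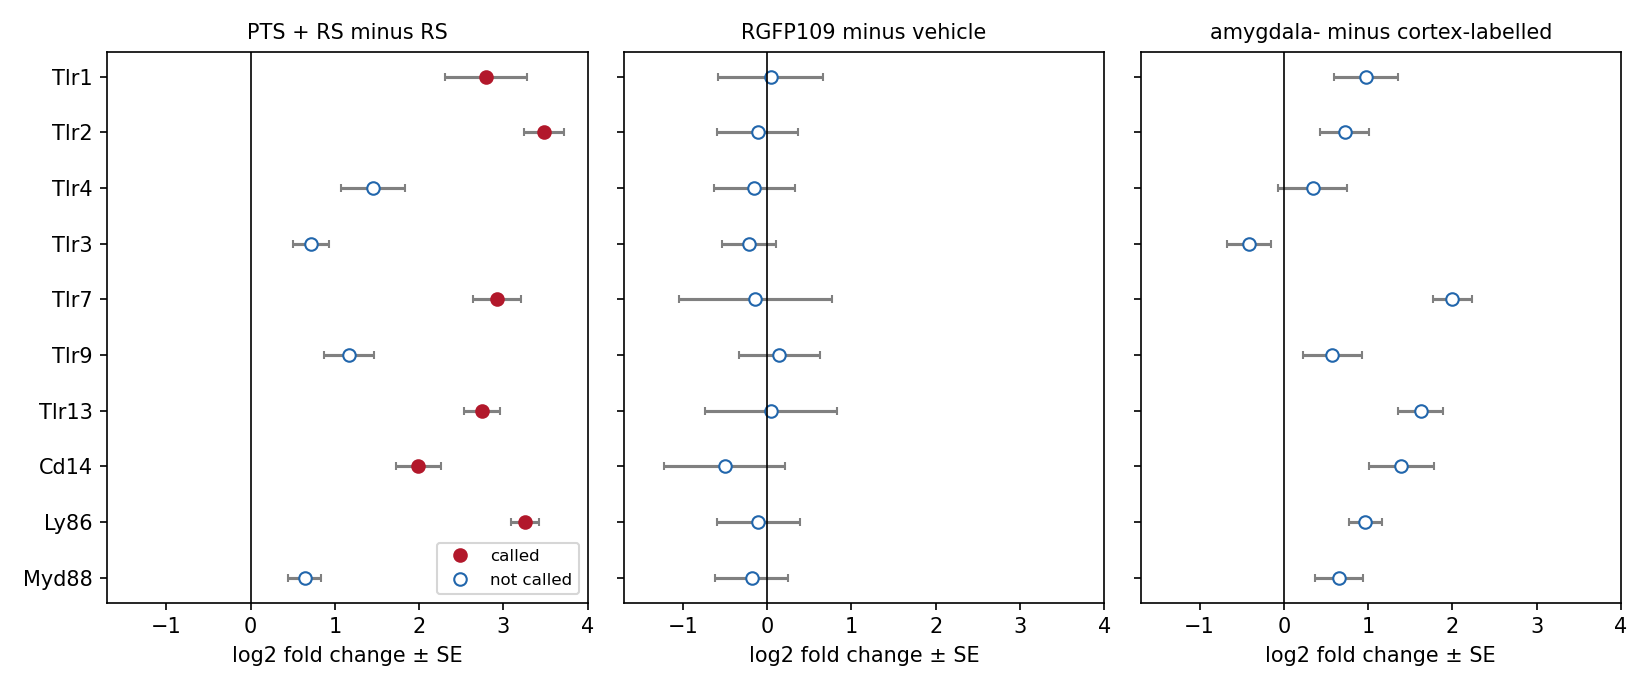
Log2 fold change of each member with its SE (edgeR, 2 against 2 libraries), for PTS + RS minus RS, RGFP109 minus vehicle and amygdala-labelled minus cortex-labelled libraries, with called genes filled. In the first panel 6 members are called, with Tlr2 at 3.48, and in the other panels none is.

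Levels between genes were compared per length, in FPKM (counts scaled to gene length and library size). In the RS group, Tlr3 had the highest level of the 10 at 2.57 ± 0.517 FPKM (SD, n = 2 libraries), followed by Myd88 at 1.94 ± 0.122 and Ly86 at 1.64 ± 0.379, whose libraries overlapped each other. Tlr4 at 0.226 ± 0.0962 and Tlr1 at 0.187 ± 0.0550 FPKM were lowest and overlapped. In the PTS + RS group, Ly86 came first at 15.7 ± 1.20 FPKM, above both libraries of every other member. Tlr2 at 5.09 ± 0.913, Tlr7 at 4.38 ± 1.06, Cd14 at 4.21 ± 0.757 and Tlr3 at 4.20 ± 0.972 FPKM followed, each overlapping its neighbour in this order, and Tlr4 was last at 0.611 ± 0.122. By mean FPKM, Tlr2 thus stood below 6 members in RS cortex and below only Ly86 in PTS + RS cortex.

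Other genes of the pathway were read from 7 lists of 53 genes, ordered by role, of which 44 could be tested and 9 rose. Of 8 receptor accessory and trafficking proteins, 3 rose and 5 did not pass. Cd180, the receptor-like protein that Ly86 binds, was at 31.4 and 21.2 CPM in PTS + RS against 2.98 and 3.66 in RS (log2 fold change 2.99 ± 0.24 (SE), adjusted p = 0.00143). Its fold, 7.94, stood beside the 9.56-fold rise of Ly86. Unc93b1, the chaperone that carries nucleic acid-sensing receptors to endosomes, rose by 4.22-fold (log2 fold change 2.08 ± 0.20 (SE), adjusted p = 0.0027), and Cd36, a scavenger receptor that works with Tlr2, by 3.67-fold (log2 fold change 1.88 ± 0.30 (SE), adjusted p = 0.0216). Ly96, the MD-2 partner of Tlr4, was at 0.992 and 1.08 CPM against 1.49 and 0.694, so its groups overlapped (log2 fold change -0.094 ± 0.48 (SE), adjusted p = 0.947). Lbp had the lowest fold change of this list (log2 fold change -0.99 ± 0.51 (SE), adjusted p = 0.37), with overlapping libraries at a mean of 10.6 against 21.2 CPM. Without PTS + RS replicate 1, the Lbp log2 fold change was -2.23. Of the 5 other Toll-like receptors, 2 could be tested and neither passed, with Tlr6 at log2 fold change 1.88 ± 0.46 (SE), adjusted p = 0.0826. Tlr6 was called with the replicate number as a block (adjusted p = 0.0487), without PTS + RS replicate 2 (adjusted p = 0.0167) and without a count filter (adjusted p = 0.00159). Tlr8, which had too few counts for the main test, was called in the last 2 of these (adjusted p = 0.0413 and 0.0391).

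The adaptors, kinases and negative regulators below the receptors held no called gene in this fit. Over all tested genes 2.12% were called higher, so the lack of calls in lists this short does not set them apart from other genes. None of the 14 kinases and ubiquitin ligases passed, and their median log2 fold change was 0.10. Tab2, an adaptor of the kinase Tak1, had an adjusted p of 0.0197 but a log2 fold change of only 0.46. Irak4, the first kinase recruited by Myd88, stood at log2 fold change 0.68 ± 0.25 (SE), adjusted p = 0.218. None of the 4 other adaptors with a TIR domain passed, with Ticam2 at log2 fold change 1.91 ± 0.52 (SE), adjusted p = 0.112, on 23 counts in each PTS + RS library and 4 and 8 in the RS libraries. None of the 6 negative regulators passed, and their median was 0.25. At an unadjusted p under 0.05 in the same edgeR fit, the counts were 3 kinases or ligases, 2 adaptors and 0 negative regulators, all higher in PTS + RS, and DESeq2 called none of these genes. Without a count filter Ticam2 was called (adjusted p = 0.0178).

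Further down, 3 of 6 transcription factors rose, all of them interferon regulatory factors. Irf8, which macrophages need to develop, was at 29.8 and 26.9 CPM against 5.13 and 6.94 (log2 fold change 2.23 ± 0.18 (SE), adjusted p = 0.00135). Irf7, which drives type I interferon after endosomal receptor signalling, rose by 4.88-fold (log2 fold change 2.29 ± 0.31 (SE), adjusted p = 0.0113) and Irf5 by 2.74-fold (log2 fold change 1.46 ± 0.21 (SE), adjusted p = 0.0149). The NF-kB subunits were at log2 fold change 0.53 ± 0.11 (SE), adjusted p = 0.0537 for Nfkb1 and log2 fold change 0.21 ± 0.0991 (SE), adjusted p = 0.334 for Rela, and neither passed.

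Of the 10 cytokine and chemokine targets, 4 could be tested and 3 chemokines rose. Cxcl10, which attracts T cells, was at 13.9 and 4.31 CPM in PTS + RS and 0.497 and 0.568 in RS (log2 fold change 4.08 ± 0.65 (SE), adjusted p = 0.02). Its call was lost with limma-voom and on the log2(FPKM + 1) and log2(FPKM + 0.1) scales. Ccl3 had 103 and 53 counts with stroke and 2 and 0 without, a ratio of 78.5 (exact 95% interval of counting error 21.4 to 654), and passed the test (adjusted p = 0.00665). Ccl4, another chemokine, had 31 and 24 counts against 1 and 1, a ratio of 27.7 (7.31 to 234, adjusted p = 0.0111). The classical targets were near the floor in all 4 libraries: Tnf had 6 and 3 counts with stroke and none without, Il1b had 3 to 9 counts in a library, and Il6 had at most 2. Differences in these could not be measured at this depth.

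**Figure D3:**
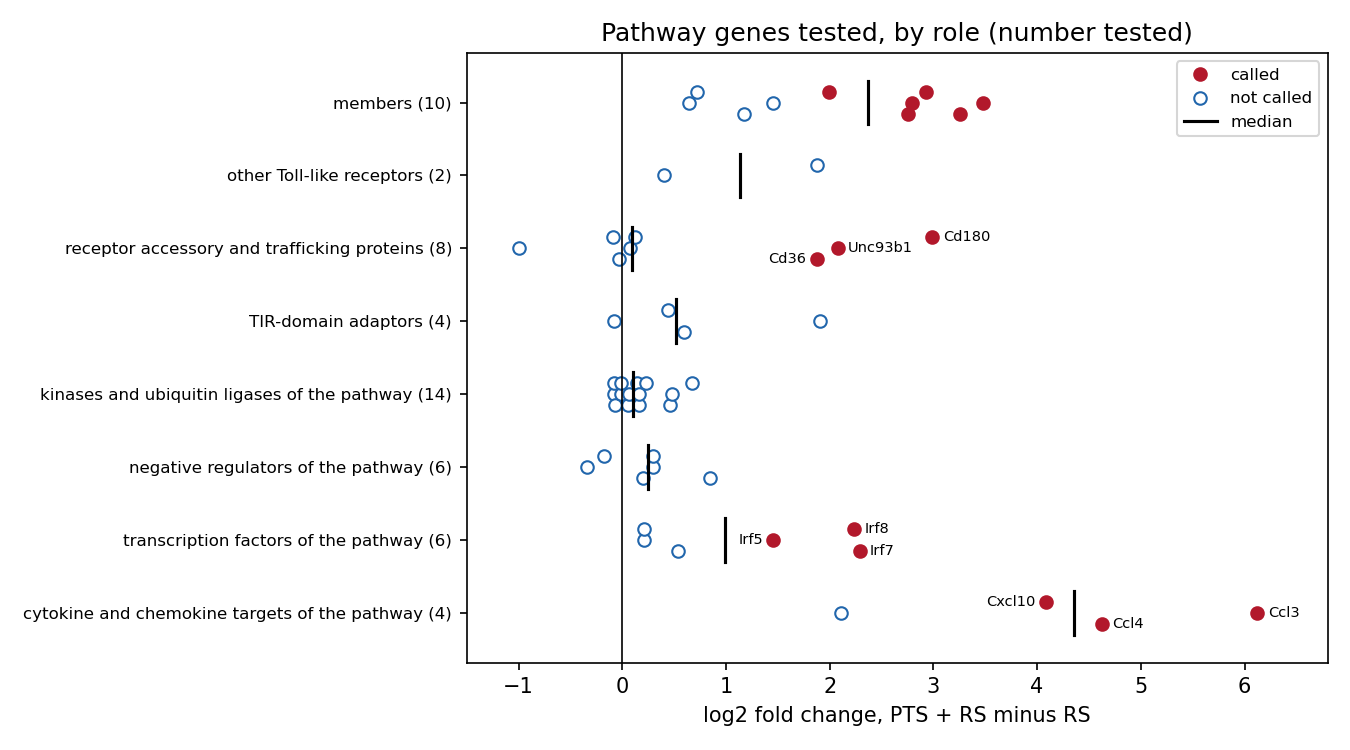
Log2 fold change, PTS + RS minus RS, of each tested member and pathway gene (1 point per gene), by role, with the number tested in parentheses, called genes filled and named outside the member list, and the list median as a line. Called genes lie among receptors, accessory proteins, interferon regulatory factors and chemokines, and none of the 14 kinases and ubiquitin ligases is called. Over all tested genes 2.12% are called higher. The points of Ccl3 and Ccl4 are fitted values of genes with at most 2 counts in an RS library.

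Markers of microglia moved with the members. All 10 microglial markers were higher in PTS + RS, 8 of 10 were called, and their log2 fold changes ran from 0.84 to 2.45 with a median of 1.74. Their summed level was 1055 and 873 CPM in the PTS + RS libraries and 309 and 271 in the RS libraries, with none at 0. The point estimates of Tlr2, Ly86, Tlr7, Tlr1 and Tlr13 were above those of all 10 markers, those of Myd88 and Tlr3 below all, and the difference was not tested. Of the 6 markers of border macrophages, 5 of which could be tested, 1 was called (Ms4a7), and their summed level was 26.0 CPM in PTS + RS replicate 1, while in RS it was 9.77 and 8.08 CPM. PTS + RS replicate 2 lay between its replicate 1 and the RS libraries. Monocyte markers, 4 of 5 of which had too few counts to test, summed to 218 and 153 against 118 and 96.4 CPM. Almost all of this sum was Fn1, at a mean of 184 against 107 CPM. Fn1 did not pass (log2 fold change 0.78 ± 0.17 (SE), adjusted p = 0.0625), and the other 4 had means of at most 0.736 CPM in either group. Markers of neutrophils stayed at or below 0.938 CPM in sum and those of B cells at or below 1.62 CPM, and none of either list had enough counts to test. Of the 6 astrocyte markers, all higher in the fit, 1 was called (Aqp4). The part of any cell type in the differences of the members was not tested.

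RGFP109 was compared with vehicle to ask whether inhibition of the deacetylase moved the same receptors in PTS + RS mice. No member was called, and for all 10 members the RGFP109 and vehicle libraries overlapped. Each group held 1 library of each labelled tissue. Overlap was therefore fixed by the design for the 8 members that were higher in both amygdala-labelled libraries. Among all 17565 genes, 0% were called in edgeR, 1.17% had an unadjusted p under 0.05 (none of them a member) and DESeq2 called 1 gene. Calls were thus few over all genes, and the reason for this was not tested. Cd14 had the largest difference, at 1.52 and 4.67 CPM with RGFP109 against 2.62 and 6.25 with vehicle, lower in both replicate numbers (log2 fold change -0.51 ± 0.71 (SE), adjusted p = 0.9997). Tlr2 was at 2.16 and 4.07 CPM against 2.73 and 4.02 (log2 fold change -0.11 ± 0.48 (SE), adjusted p = 0.9997). Tlr7 was at 2.54 and 9.58 CPM against 2.56 and 10.9 (log2 fold change -0.14 ± 0.91 (SE), adjusted p = 0.9997). In both genes the replicate 2 libraries were high and the replicate 1 libraries low whatever the treatment, and this spread set the wide errors.

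Within each replicate number, that is within 1 labelled tissue, only Cd14 and Tlr7 were lower with RGFP109 in both pairs and only Tlr1 higher in both, and the other 7 differed in sign between the pairs. Cd14 was lower by a log2 difference of -0.74 in replicate 1 and -0.41 in replicate 2. The differences of Tlr1 (0.036 and 0.025) and of Tlr7 in replicate 1 (-0.012) were close to 0. Tlr4 was the furthest apart, at -0.83 and 0.36. Each value compares 1 library with 1 library and has no test, and the replicate 1 pair includes the vehicle library with the olfactory bulb markers. The libraries of that pair also differed in choroid plexus markers. A fit with the replicate number, and so the labelled tissue, as a block called no member either, with Cd14 at -0.58 (adjusted p = 0.9999).

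**Figure D4:**
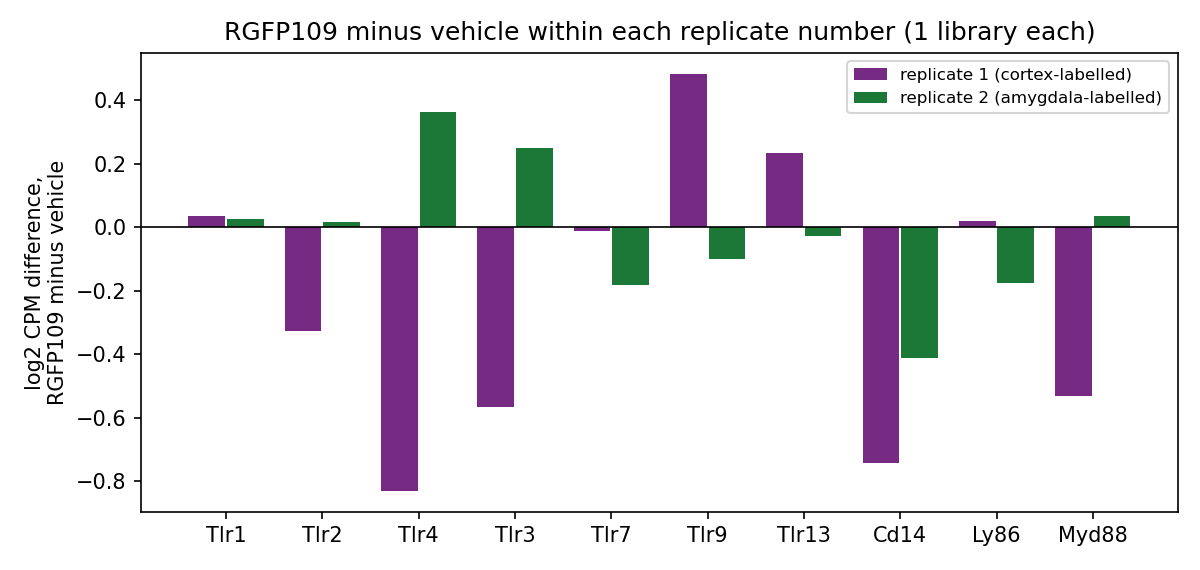
Log2 CPM difference, RGFP109 minus vehicle, of each member within replicate 1 (cortex-labelled) and replicate 2 (amygdala-labelled), each bar being 1 library minus 1 library with no error. Cd14 and Tlr7 are lower in both pairs, Tlr1 is slightly higher in both, and the other 7 members change sign between the pairs.

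The rest of the pathway gave no call with RGFP109 either: of 43 tested pathway genes, 16 were higher and 27 lower, and none passed. The 6 transcription factors were all lower in the fit, with a median log2 fold change of -0.28 against -0.016 for all tested genes. Irf7, at 2.03 and 2.85 CPM with RGFP109 and 3.98 and 3.43 with vehicle, had the largest difference of the list (log2 fold change -0.60 ± 0.38 (SE), adjusted p = 0.9997). Tnfaip3, the A20 enzyme that restrains NF-kB, was higher in both RGFP109 libraries, at 7.67 and 8.60 CPM against 3.87 and 5.17, and did not pass (log2 fold change 0.85 ± 0.31 (SE), adjusted p = 0.9997). The microglial markers, leaving out Sall1, which was at 208 CPM in vehicle replicate 1 and at most 28.2 in the other libraries of this table, summed to 326 and 394 CPM with RGFP109 and 258 and 376 with vehicle.

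The labelled tissues were compared over both treatments. In the RGFP109 and vehicle libraries, 8 of 10 members were higher in both amygdala-labelled libraries than in both cortex-labelled libraries, as were 21.6% of all tested genes, but none was called in the edgeR fit, where 0% of all genes were called. Tlr7 was at 9.58 and 10.9 CPM in the amygdala-labelled libraries (RGFP109 and vehicle) and at 2.54 and 2.56 in the cortex-labelled ones (log2 fold change 2.00 ± 0.24 (SE), adjusted p = 0.203). Tlr13 was at 6.08 and 6.20 against 2.16 and 1.82 CPM (log2 fold change 1.62 ± 0.27 (SE), adjusted p = 0.248). For both genes the separation between tissues was several times the spread within them.

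Ly86 was at 12.9 and 14.5 CPM in the amygdala-labelled libraries against 7.04 and 6.94 (log2 fold change 0.97 ± 0.20 (SE), adjusted p = 0.29), and Cd14 at log2 fold change 1.39 ± 0.39 (SE), adjusted p = 0.344. Tlr3 went the other way, with overlapping libraries at 14.6 and 12.3 against 14.5 and 21.4 CPM (log2 fold change -0.42 ± 0.26 (SE), adjusted p = 0.617), and Tlr4 overlapped too (log2 fold change 0.34 ± 0.41 (SE), adjusted p = 0.807). Among the pathway genes the negative regulator Nfkbia was at a mean of 38.7 against 18.5 CPM, without overlap. It was not called in edgeR on all 4 libraries (log2 fold change 1.06 ± 0.19 (SE), adjusted p = 0.262) but was with DESeq2 (adjusted p = 0.0165). Ccl3 had 28 and 22 counts in the amygdala-labelled libraries and 2 and 2 in the cortex-labelled ones. Irf8 was at 12.1 and 12.9 against 5.26 and 5.40 CPM, and neither Ccl3 nor Irf8 was called in edgeR on all 4 libraries. DESeq2 called Irf8 (log2 fold change 1.24, adjusted p = 0.0211), and edgeR called both genes without vehicle replicate 1 and without RGFP109 replicate 1.

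Without vehicle replicate 1, the library with the olfactory bulb markers, 4% of 18613 tested genes were called higher in amygdala-labelled libraries and 3 members were among them: Tlr7 (log2 fold change 2.02, adjusted p = 7.56e-07), Tlr13 (1.52, adjusted p = 5.72e-04) and Cd14 (1.85, adjusted p = 1.80e-04). This fit sets 2 amygdala-labelled libraries against 1 cortex-labelled library, whose spread is assumed to be that of the others. The same 3 members were called without RGFP109 replicate 1, where the cortex side is the olfactory library alone and 7.45% of tested genes were called higher. DESeq2 on all 4 libraries called Tlr7 (adjusted p = 9.76e-05) and Tlr13 (adjusted p = 0.0248), and called 1.37% of all genes with an adjusted p higher. The 6 striatal markers were all higher in the amygdala-labelled libraries, with a median log2 fold change of 3.27, and so were 7 of 10 microglial markers, with a median of 0.50. All 6 border macrophage markers were higher too (median 0.90, 1 at an unadjusted p under 0.05), with a summed level of 26.5 and 39.5 against 17.3 and 17.2 CPM. So were all 6 oligodendrocyte markers (median 0.51, 5 at an unadjusted p under 0.05), at 4260 and 4736 against 3000 and 3020 CPM, and all 6 cerebral cortex markers (median 0.84). None of these markers was called, and the median of the members was 0.85. Their part in the tissue difference of the members was not tested.

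The vehicle libraries also came from PTS + RS mice. Yet the cortex-labelled vehicle library, replicate 1 with the olfactory bulb markers, was closer in FPKM to the RS than to the PTS + RS mean for 8 of 10 members. The exceptions were Tlr3 and Tlr4. Ly86 was at 1.89 FPKM in this vehicle library, against 1.90 and 1.37 in RS and 16.5 and 14.8 in PTS + RS. Tlr2 was at 0.895 FPKM against 0.492 and 0.417 in RS and 5.74 and 4.45 in PTS + RS. In the amygdala-labelled vehicle library Ly86 was at 3.98 and Tlr2 at 1.33 FPKM. These values come from separate tables and are given side by side with no test and no share over all genes. The experiment, the treatment and the olfactory bulb content of the cortex-labelled vehicle library cannot be told apart.

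Over the 8 libraries, the genes most like each member were found by the Pearson correlation of log2 CPM among 16912 genes tested in both tables. The libraries share group, tissue and table, so the correlations describe these 8 points and carry no p. Tlr2 was most like Fcgr1, a receptor for antibodies (r = 0.990), and then Unc93b1 and Plek. Tlr7 was most like Ctsh (r = 0.994), Fyb and the chemokine Ccl3, Tlr13 like Vsir (r = 0.993), Icam1 and Ncf1, and Tlr1 like Lgals3bp (r = 0.990), Wasf2 and Sash3. Ly86 was most like Grn, which encodes progranulin (r = 0.992), Ubl7 and Fcer1g, and Cd14 like H2-D1 (r = 0.991), Gpnmb and Lpxn. Tlr9 was most like Fgr (r = 0.984), Pycard and Plau. The genes most like the other members were Uba7 for Tlr3 (r = 0.979), with Slc25a45 and Lrp5, Daxx for Tlr4 (r = 0.959), with Casr and Entpd1, and 9930111J21Rik2 for Myd88 (r = 0.964), with Gm20274 and Casp4.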

How the data were processed

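The 8 RNA-seq libraries came from mouse brain. By the study's methods and the submitters' processing notes, the authors aligned reads to GRCm38 with STAR 2.4.0 and deposited raw read counts per gene from HTSeq 0.6.1. The deposited FPKM values are the counts scaled to gene length and library size, as the authors calculated them, and were used for levels between genes and as an alternative. The labels and the paper name different library kits. The authors' fold changes and p-values, and 8 columns of per-sample normalized values, were not used.

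Groups followed the labels. Genes were filtered by filterByExpr, normalized by TMM and tested with the quasi-likelihood test of edgeR 4.0.16 in R 4.3.3, with Benjamini-Hochberg adjustment over all tested genes (17581 in the stroke comparison and 17565 in the others). The amygdala-labelled and cortex-labelled libraries were compared over both treatments. Genes below an adjusted p of 0.05 that changed by 1 or more on the log2 scale were called. CPM used TMM library sizes, with a prior count of 2 for log2 differences of single libraries. Alternatives used DESeq2 1.42.0 and limma 3.58.1, other filters, scales and left-out libraries. Of the 10 members all were named, and of each pathway list all called genes and up to 3 with the largest change. For each member the 3 genes with the highest correlation over 8 libraries were named. Ly96, Lbp, Rela, Tnf, Il1b, Il6, Sall1, Ms4a7, Fn1, Aqp4 and Tlr8 were named outside this rule, after their values were seen. The members and gene lists were chosen with earlier results of these data known. The edgeR script was tested on simulated data. With 2 libraries a group an exact permutation test cannot go below 0.333, so none was run.

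In the RGFP109 and vehicle groups the replicate number is also the labelled tissue, and the replicate 1 minus 2 differences of these groups correlated at 0.264 over 15987 genes. Intervals cover counting error only. The depth of 15902013 to 21712033 counts limits genes with few counts, where a count of 0 allows up to 3 counts.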

Additional observations from a re-analysis of the deposited data

Results flagged for a closer look

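For 7 members the difference between RGFP109 and vehicle had opposite signs in the 2 labelled tissues, each with 1 library per treatment, and the difference between the tissues was not tested. On the log2 scale, RGFP109 minus vehicle, Tlr4 was at -0.83 in the cortex-labelled pair and 0.36 in the amygdala-labelled pair. Tlr3 was at -0.56 and 0.25, and Myd88 at -0.53 and 0.035. Tlr2 was at -0.33 in the cortex-labelled and 0.015 in the amygdala-labelled pair. In the other direction, Tlr9 was at 0.48 and -0.10, Tlr13 at 0.23 and -0.028, and Ly86 at 0.020 and -0.17. For Myd88, Tlr2, Tlr13 and Ly86, 1 of the 2 differences was 0.035 or less in size. The share of opposite signs over all genes was not examined. The cortex-labelled pair contains vehicle replicate 1, the library with the olfactory bulb markers, and its libraries also differed in choroid plexus markers.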

How the results depend on the processing

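For PTS + RS against RS, 6 to 8 members were called without each library in turn and none lower. Tlr1 lost its call with limma-voom and on both FPKM scales (adjusted p = 0.0695, 0.109 and 0.0695). Tlr4 and Tlr9 gained one without a count filter (adjusted p = 0.00119 and 0.00607) and without PTS + RS replicate 2. The other 103 of 110 settings of the members kept direction and side of the threshold. Over all genes, 373 were called higher and 16 lower, against 604 and 155 without a count filter, 184 higher on the log2(FPKM + 1) scale, 32 lower with DESeq2, 25 lower on the log2(FPKM + 0.1) scale and 32 lower with the replicate block. Leaving out 1 library gave 308 to 626 higher (626 without PTS + RS replicate 2) and 15 to 192 lower (192 without PTS + RS replicate 1). The numbers of PTS + RS and RS samples pair nothing by label, and their replicate differences correlated at 0.033, so the block, which changed no member's call and gained that of Tlr6 (adjusted p = 0.0487), shares only a number. Of the 9 pathway genes called, 5 were on the log2(FPKM + 1) scale, and 8 to 11 without a library (0 to 1 lower). Cd36 lost its call without either RS library, and Cxcl10 with limma-voom and on both FPKM scales.

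For RGFP109 against vehicle, no member or pathway gene was called in any setting, and the replicate block, by labelled tissue, changed no call. DESeq2 called 1 gene lower, and leaving out 1 library gave 0 to 15 higher and 0 to 78 lower, the largest counts without vehicle replicate 2. Leaving out 1 library leaves 1 labelled tissue in 1 group and both in the other, so treatment and tissue are mixed in these fits. Without 1 library, 18 of 40 member values changed sign. The log2 fold changes then ran from -0.53 to 0.63 for Tlr1, -0.64 to 0.27 for Tlr2, -0.55 to 0.24 for Tlr3, -0.76 to 0.26 for Tlr4, -1.40 to 1.26 for Tlr7, -0.24 to 0.67 for Tlr9, -0.89 to 1.20 for Tlr13, -1.54 to 0.27 for Cd14, -0.61 to 0.53 for Ly86 and -0.75 to 0.22 for Myd88.

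For amygdala-labelled against cortex-labelled libraries, where edgeR called 0 genes (1197 higher and 773 lower at an unadjusted p under 0.05), DESeq2 called 259 higher and 85 lower, among them 2 members and 2 pathway genes, the fit without a count filter 13 higher, and the fits on either FPKM scale 1 higher each. Leaving out 1 library gave 0 to 1396 higher and 0 to 1116 lower, with 0 to 3 members and 0 to 7 pathway genes higher and 0 to 1 pathway gene lower. The largest counts were those without RGFP109 replicate 1, and without vehicle replicate 1 the counts were 744 higher and 397 lower. Tlr4 ran from -0.016 to 0.86, changing sign without RGFP109 replicate 1. The cause of these changes was not tested. Depth limits Tnf, Il1b and Il6, and Tlr1 and Tlr4 among the members.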
